A study of Mus musculus with 16 samples.

Results

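The ribosomal protein pseudogenes of the mouse were followed in protrusions and cell bodies of NIH/3T3 fibroblasts, an established mouse line. The members were the RNAs of the deposited table whose symbol begins with Rpl or Rps and ends in -ps with or without a number, and they came to 112 of 12900 RNAs. The symbol before -ps names the parent, the intron-containing gene that encodes the protein, and each of the 51 parents was also in the table. Symbols of large subunit proteins accounted for 61 members and those of small subunit proteins for 51.

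Ribosomal protein (r-protein) mRNAs are short, very abundant in growing cells and carry a terminal oligopyrimidine tract at their 5′ end, through which growth signals set their translation. They are also among the mRNAs most often copied back into the genome. Reverse transcription by the LINE-1 machinery inserts a spliced, intron-less copy at a new site, without the parent's promoter, and such a copy is called a processed pseudogene. Most copies collect mutations and are silent, while a few lie close to a promoter and are transcribed. A young copy differs from its parent at few bases, so a sequencing read from the parent can also fit the copy.

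Both stable lines, made by lentiviral transduction and geneticin selection, carried a doxycycline-inducible construct with the human β-globin coding sequence. In the control line it was followed by the β-globin 3′UTR (HBB), and in the other by the 3′UTR of Pkp4, an RNA known to localize to protrusions, as a competitor (Pkp4 cUTR). Every group had 3 days of doxycycline at 1 μg/ml, serum starvation, 2 h on filters with 3.0 μm pores, and 1 h of lysophosphatidic acid, a chemoattractant, under the filter. Before the fractions were collected, a light fixation followed in every group, lasting 10 min, with paraformaldehyde at 0.3%. Protrusions (Ps) and cell bodies (CB) came from separate filters, 1 for a CB sample and 3 for a Ps sample, and each of the 4 groups held 4 samples.

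The libraries held 18660287 to 31260831 reads on the RNAs of the table. Of 8 fibroblast markers, 7 were in the table, at mean log2 CPM (reads of an RNA relative to the scaled library size) of 8.01 to 12.5. Of the epithelial markers 2 of 4 were listed (2.10 and 3.40), of the endothelial markers 2 of 3 (−0.84 and −1.35), and of the leukocyte markers 2 of 3 (2.31 and 4.99), and their part in the results was not tested. The long nuclear RNAs Malat1, Neat1 and Kcnq1ot1 summed to 159.8 to 314.7 CPM in the Ps samples and to 476.1 to 723.1 CPM in the CB samples. Libraries were prepared with a stranded kit, but the strand setting of the read counting and its treatment of reads that fit several places are not given in the sources used here.

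For these pseudogenes, though not for their parents, the CB samples numbered 4 of both lines stood apart. The median over the 112 members was −0.83 to −0.30 log2 CPM in HBB CB samples 1 to 3 and 1.30 in sample 4. In the Pkp4 cUTR line it was −0.56 to −0.31 in CB samples 1 to 3 and 1.71 in sample 4. The main counts and medians, and the values of some members, are therefore given below with and without these 2 samples.

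The members were close copies. In the GENCODE vM21 annotation of GRCm38, each was a single exon of 151 to 1214 bases, 105 were annotated as processed pseudogenes, 3 as transcribed processed pseudogenes and 4 as protein coding. They lay on 20 chromosomes, with 11 on the X chromosome. Identity to the parent transcript ran from 87.5% to 100% with a median of 98.8%, and 11 members matched it at every aligned base.

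Each member was also searched for windows as long as 1 sequencing read that occur in no other annotated transcript. In 13 members no window was unique, so that no single read inside them could be told from another RNA by its sequence, and in 22 members every window was unique. The closest annotated transcript was the parent's in 85 members and that of another gene in 27, often another pseudogene.

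A few bases therefore decide which copy a read is assigned to, as stretches of 30 bases from 4 members that the results turn on show. Each was chosen because no other stretch of its length in the alignment holds more differences, so it overstates how often the copies differ. Each is printed beside the same stretch of the parent transcript, 5′ to 3′ on the transcribed strand, from the vM21 transcripts, with the differing bases in capitals.
Rps2-ps13: ttaggAggccgcggcggcttccgcggaggG
Rps2: ttaggTggccgcggcggcttccgcggaggA
Rps26-ps1: gaggccgttttgtaaggacAgaaggaaaaC
Rps26: gaggccgttttgtaaggacGgaaggaaaaT
Rps10-ps1: gtaccttacgaacgagggcatccagtGtcC
Rps10: gtaccttacgaacgagggcatccagtAtcT
Rps13-ps4: acgacgtgaaggaaAagatttacaaattgC
Rps13: acgacgtgaaggaaCagatttacaaattgG
The stretch of Rps2-ps13, the most abundant member, lies at chrX:52898642-52898671 on the plus strand, and the whole alignment of 882 bases holds 7 mismatches to Rps2. Its closest transcript was not Rps2 but another member, Rps2-ps10, at 99.8% identity. The stretch of Rps26-ps1, the member nearest its parent in level per kilobase of annotated exon, lies at chr8:107439184-107439213 on the minus strand, with 4 mismatches in 429 aligned bases. The stretch of Rps10-ps1, whose Ps to CB difference passed the test only without the CB samples numbered 4, lies at chr3:95622484-95622513 on the plus strand, with 6 mismatches in 495 bases. That of Rps13-ps4, the member with no enrichment in Ps, lies at chr8:119602505-119602534 on the minus strand, with 3 mismatches in 456 bases.

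Reads on the members were concentrated in a handful of loci. The 112 members together took 0.286% to 0.381% of the reads of the HBB CB samples, 0.501% to 0.582% of the HBB Ps samples, 0.318% to 0.409% of the Pkp4 cUTR CB samples and 0.536% to 0.577% of the Pkp4 cUTR Ps samples, so that the fractions did not overlap. Of all these reads 88.5% fell on 5 members, namely Rps2-ps13, Rps2-ps10, Rps26-ps1, Rpl3-ps1 and Rpl38-ps2, and 50.2% fell on Rps2-ps13 alone. At the other end, 57 members had a median of under 30 reads per sample, and 39 had a mean log2 CPM above 1.

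Per kilobase of exon, most members were far below their parents. The median member stood at 0.228% of its parent's CPM per kilobase, and 34 of 112 were above 1%. The length of a parent was the sum over the exons of all its annotated transcripts, which exceeds that of its spliced mRNA and lowers its value on this scale.

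Of the most abundant members, Rps26-ps1 reached 1420 CPM per kilobase and Rps26 1430, which makes 99.3% with the 1544 bases counted for the parent. Rps2-ps13 reached 2570 CPM per kilobase and Rps2 2673, or 96.2%. Rpl34-ps1 stood at 58.6% of Rpl34, Rpl38-ps2 at 40.7% of Rpl38, Rps2-ps10 at 25.9% of Rps2 and Rpl3-ps1 at 19.7% of Rpl3, and the remaining 106 members were lower.

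Across the 112 members, the share of unique windows and the mean log2 CPM had a Spearman's rho of −0.38, and identity to the parent and mean log2 CPM one of 0.46. These describe loci whose reads come from the same 16 libraries and whose read assignment depends on both properties. The median mean level was 3.67 log2 CPM in the 13 members without a unique window and −0.36 in the 22 with unique windows throughout.

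**Figure D1:**
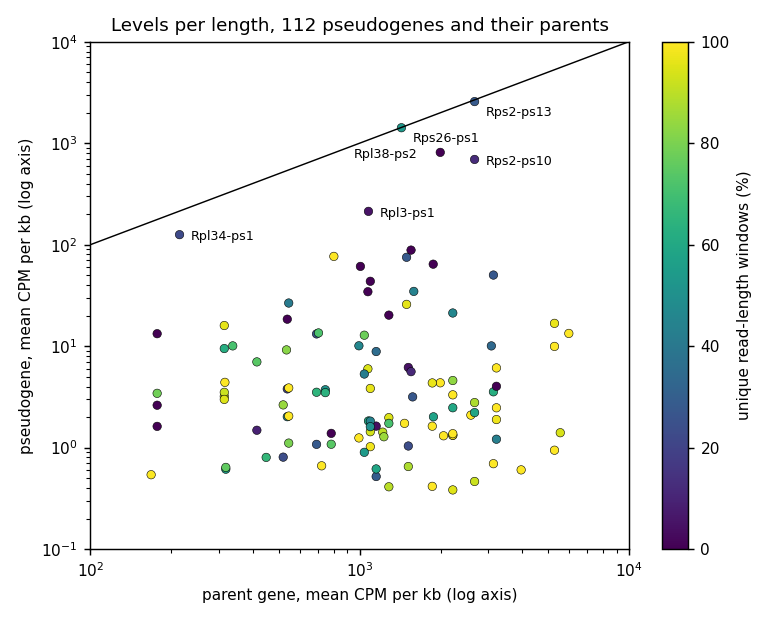
Mean CPM per kilobase of exon of each of the 112 pseudogenes (vertical, log axis) against that of its parent gene (horizontal, log axis), over 16 samples, coloured by the percentage of read-length windows unique to the pseudogene. The line marks equal levels per kilobase, with the parent's length summed over the exons of all its transcripts. On this scale Rps26-ps1 stands at 99.3% of its parent, Rps2-ps13 at 96.2% and the median pseudogene at 0.228%. Without lengths, the group means of the log2 ratio to the parent were −1.88 to −1.63 for Rps26-ps1 and −1.24 to −0.98 for Rps2-ps13.

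In both lines the pseudogenes were higher in Ps than in CB. The question the study put was which RNAs are enriched in protrusions, by a rule of fold change (FC) above 2 and unadjusted p under 0.05. By this rule, 36 of 112 members were Ps-enriched in the HBB line and 0 were CB-enriched, where 4.54% of all 12900 RNAs were Ps-enriched (limma-voom). Pkp4 cUTR cells had 35 Ps-enriched and 0 CB-enriched members, where the share of all RNAs was 5.07%, and 24 members were called in both lines. The median log2(FC) was 0.99 in the HBB line (range −0.36 to 1.97) and 0.91 in the Pkp4 cUTR line (range −0.56 to 2.08), while that of all RNAs was 0.01 in each. In such relative values, a lower share of nuclear RNA in a fraction and a higher level of cytoplasmic RNA cannot be told apart.

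By direction, 111 of 112 members had a log2(FC) above 0 in both lines. At an adjusted p under 0.05, 48 members were higher in Ps in the HBB line against 28.3% of all RNAs, and 51 in the Pkp4 cUTR line against 28.2%. In 23 members every HBB Ps sample exceeded every HBB CB sample, where the share of all RNAs was 25.5%. The groups were so separated in 21 members in the Pkp4 cUTR line, where the share of all RNAs was 22.6%. Set against these shares, the members cleared the fold threshold more often than RNAs in general, but did not have separate groups more often.

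Single samples decided much of these counts. Without HBB CB sample 4 the HBB count was 75, without HBB Ps sample 2 it was 55, and without HBB CB sample 3 it was 20, where 5.44%, 4.93% and 3.88% of all RNAs were called. For Pkp4 cUTR cells it was 77 without CB sample 4, and 19, 20, 18 and 23 without CB sample 1, 2 or 3 or Ps sample 3, where the shares of all RNAs were 7.41%, 5.23%, 4.26%, 4.09% and 4.29%.

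Leaving out both CB samples numbered 4, in which most members were high, raised the counts in both lines. The count was then 82 of 112 in each line, with 5.87% of all RNAs called in the HBB line and 7.67% in the Pkp4 cUTR line, and 69 members were called in both. The called members of the full set of samples were all among them, 36 of 36 and 35 of 35. Every Ps sample exceeded every remaining CB sample in 81 members in the HBB line (all RNAs 30.1%) and in 96 in the Pkp4 cUTR line (all RNAs 29.6%). The median log2(FC) rose to 1.28 and 1.26, and the adjusted p was under 0.05 in 96 and 99 members, against 29.4% and 31.0% of all RNAs. This alternative was chosen after the data were seen, because the members were high in these CB samples. Leaving them out therefore raises Ps over CB by construction. HBB Ps sample 4, in which 38 members were over 2-fold above the others (all RNAs 1.9%), was kept. Without all samples numbered 4 the counts were 70 and 86, with medians of 1.14 and 1.36, where 6.01% and 8.45% of all RNAs were called.

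High and low members had nearly the same median enrichment. Of the 39 members with a mean log2 CPM above 1, 19 were called in the HBB line and 14 in the Pkp4 cUTR line, with medians of 0.99 and 0.88. Of the 73 others, 17 and 21 were called, with medians of 0.99 and 0.95. Among the 39, every Ps sample exceeded every CB sample in 20 and 15 members, and among the 73 in 3 and 6.

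**Figure D2:**
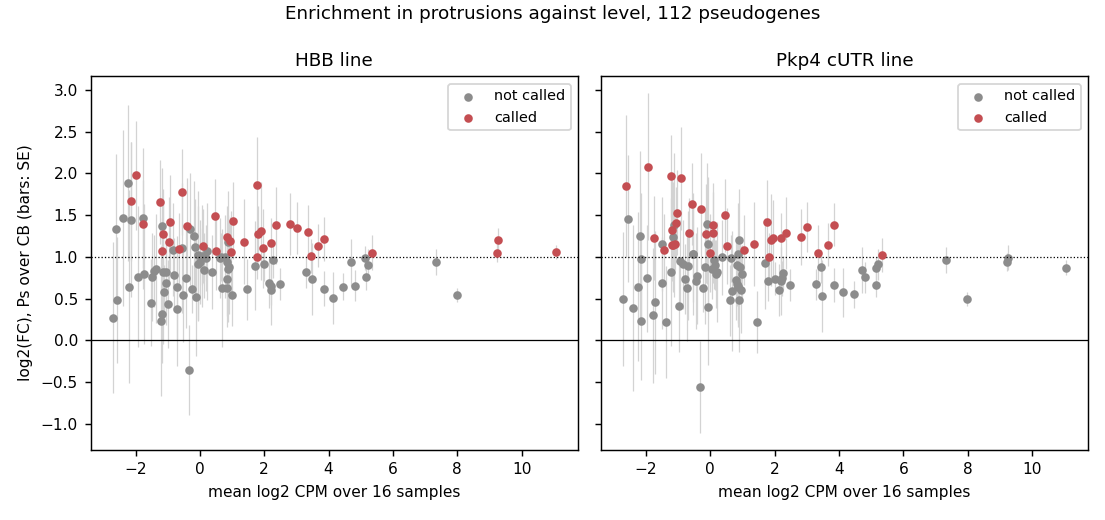
log2(FC) of Ps over CB with its SE (vertical) against the mean log2 CPM over 16 samples (horizontal) for the 112 pseudogenes in the HBB line (left) and the Pkp4 cUTR line (right), red where FC was above 2 with unadjusted p under 0.05 (36 and 35 members) and with a dotted line at 2-fold. All but 1 member lie above 0 in each line, and the errors widen toward low levels.

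The most abundant members carried the enrichment with little spread. Rps2 encodes a protein of the small subunit near the mRNA entry site. Rps2-ps13 (chrX:52898588-52899469, plus strand) had log2 CPM of 11.48, 11.38, 11.68 and 11.58 in the HBB Ps samples and of 10.44, 10.37, 10.41 and 10.66 in the HBB CB samples. Its Pkp4 cUTR values were 11.53, 11.55, 11.65 and 11.52 in Ps and 10.83, 10.75, 10.54 and 10.65 in CB. Every Ps sample was above every CB sample in both lines, and CB sample 4 was the highest of its group in the HBB line but not in the Pkp4 cUTR line. Its log2(FC) was 1.06 ± 0.09 (SE) in HBB cells (adjusted p = 2.51e-08) and 0.87 ± 0.09 in Pkp4 cUTR cells (adjusted p = 2.96e-07), where Rps2 itself had 1.11 and 1.04. Under quantile normalization, which fixes the distribution of the highest values, the Pkp4 cUTR value was 0.09 (adjusted p = 0.412), the one alternative that ended its call.

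Rps2-ps10, the other abundant copy of Rps2, had log2 CPM of 9.64, 9.67, 9.86 and 10.07 in the HBB Ps samples and of 8.52, 8.47, 8.32 and 9.09 in the HBB CB samples. Pkp4 cUTR cells had 9.61, 9.80, 9.80 and 10.07 in Ps and 8.93, 8.88, 8.51 and 9.00 in CB. The samples numbered 4 were the highest of all 4 groups, and Ps and CB did not overlap. The log2(FC) was 1.20 ± 0.15 in the HBB line and 0.99 ± 0.15 in the Pkp4 cUTR line (adjusted p = 2.47e-06 and 2.44e-05), and without the CB samples numbered 4 it was 1.37 and 1.05. Only 27.7% of the windows of Rps2-ps13 and 12.1% of those of Rps2-ps10 were unique, so that reads of these copies and of Rps2 cannot be fully told apart.

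Rps26 encodes a small subunit protein at the mRNA exit channel. Rps26-ps1 (chr8:107439131-107439579, minus strand) had log2 CPM of 9.68, 9.56, 9.86 and 9.58 in the HBB Ps samples and of 8.56, 8.54, 8.61 and 8.80 in CB, and 9.77, 9.70, 9.97 and 9.64 against 8.91, 8.63, 8.67 and 9.13 in the Pkp4 cUTR line. Ps and CB did not overlap in either line. Its log2(FC) was 1.05 ± 0.11 (adjusted p = 2.97e-07) and 0.93 ± 0.11 (adjusted p = 1.44e-06), below the 1.22 and 1.16 of Rps26. Rps26-ps1 lies inside Wwp2, a ubiquitin ligase gene of the opposite strand, whose log2(FC) was −0.46 and −0.33.

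Rpl38, a large subunit protein known for its role in the translation of Hox mRNAs, gave rise to Rpl38-ps2, which has no unique window. Its HBB Ps samples were at 7.68, 7.61, 7.78 and 7.60 log2 CPM and its HBB CB samples at 6.51, 6.57, 6.71 and 7.13, with sample 4 the highest CB sample and the groups apart. The log2(FC) was 0.94 ± 0.16 in the HBB line and 0.96 ± 0.16 in the Pkp4 cUTR line (adjusted p = 6.24e-05 and 5.73e-05).

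Rpl3 is a large subunit protein close to the peptidyl transferase centre. Rpl3-ps1 (chrX:13202571-13203780, plus strand) was at 8.22, 8.08, 8.41 and 8.15 log2 CPM in the HBB Ps samples and at 7.76, 7.68, 7.74 and 7.52 in the HBB CB samples. Here CB sample 4 was the lowest of its group and the fractions were again separate. It had the lowest enrichment of the 12 most abundant members, with a log2(FC) of 0.54 ± 0.08 (adjusted p = 2.35e-05) and 0.49 ± 0.08 (adjusted p = 7.03e-05), and Rpl3 had the lowest of the 51 parents in the HBB line, 0.72.

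Rpl34 encodes a large subunit protein. Rpl34-ps1 had log2 CPM of 5.52, 5.44, 5.74 and 5.98 in the HBB Ps samples and of 4.51, 4.59, 4.23 and 5.23 in CB, with sample 4 the highest of both and no overlap. Its log2(FC) was 1.05 ± 0.21 (adjusted p = 0.000359), and 1.23 without the CB samples numbered 4.

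The remaining members among the 12 highest, beside Rpl34-ps1, were Rpl10a-ps1, Rps10-ps2, Rps23-ps, Rpl19-ps11, Rps16-ps2 and Rpl14-ps1, copies of genes for proteins of both subunits. Their log2(FC) ran from 0.64 (Rpl14-ps1) to 0.99 (Rps23-ps) in the HBB line and from 0.55 (Rpl14-ps1) to 0.91 (Rpl10a-ps1) in the Pkp4 cUTR line, with an adjusted p under 0.05 for each of the 6 in both lines. Of these 6, Rpl10a-ps1, Rps10-ps2 and Rps23-ps had separate Ps and CB groups in both lines. With counts scaled by total reads, which lowered the median of all RNAs to −0.23 and −0.25, Rps16-ps2 and Rpl14-ps1 lost their call in the Pkp4 cUTR line (0.58 and 0.29, adjusted p = 0.0712 and 0.0964).

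**Figure D3:**
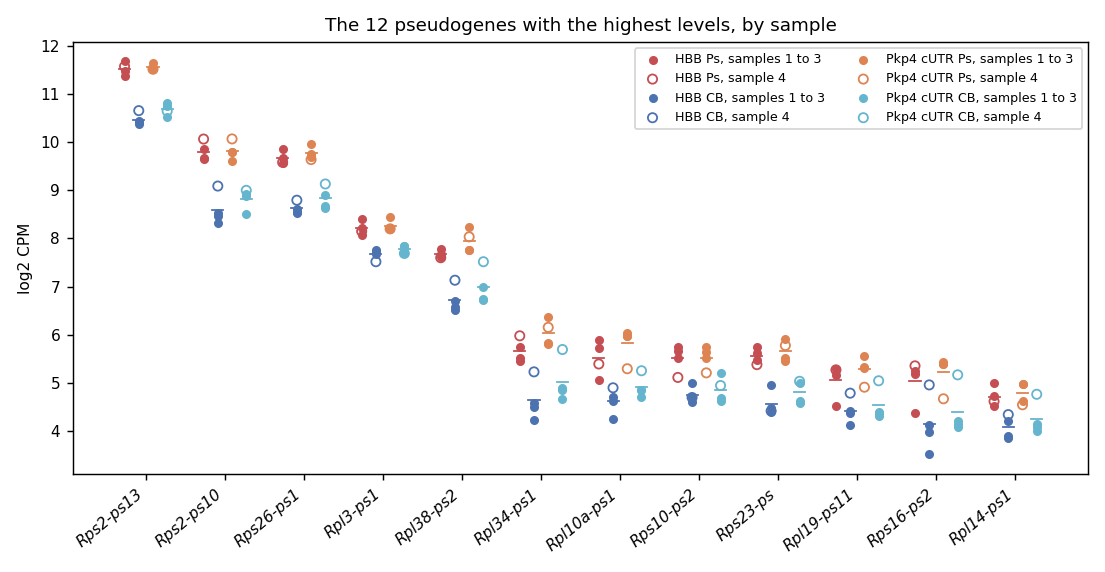
log2 CPM of the 12 pseudogenes with the highest mean level in each of the 16 samples, with HBB Ps in red, HBB CB in blue, Pkp4 cUTR Ps in orange and Pkp4 cUTR CB in light blue; bars are group means and open circles the samples numbered 4. Ps means exceed CB means for each of the 12, and the open circles of the CB groups are often the highest of their group, though not for Rpl3-ps1.

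Among members with a mean log2 CPM above 1, the steepest were copies of Rpl35a, Rps12, Rps13, Rps15a and Rpl9 in the HBB line. Rpl35a encodes a large subunit protein. Rpl35a-ps2 (chr1:181241988-181242320, minus strand) had log2 CPM of 2.91, 1.18, 3.21 and 2.38 in the HBB Ps samples and of 1.01, 1.54, −1.22 and 1.22 in CB, which is 46 to 170 reads against 14 to 84. Ps sample 2 fell below CB samples 2 and 4, so the groups overlapped, and CB sample 3 was far below the rest. The log2(FC) was 1.86 ± 0.57 (adjusted p = 0.00952), and 1.16 without CB sample 3 (adjusted p = 0.0557).

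Among Pkp4 cUTR samples Rpl35a-ps2 stood at 3.21, 3.08, 2.92 and 1.59 in Ps and at 0.44, 1.76, 1.13 and 1.94 in CB. Ps sample 4 was below CB samples 2 and 4. The log2(FC) was 1.42 ± 0.50 (adjusted p = 0.0225), and the adjusted p was 0.0797, 0.0543, 0.0662 and 0.054 without CB sample 1 or 3 or Ps sample 1 or 2. The call also ended without weights (adjusted p = 0.0646) and with quantile normalization (adjusted p = 0.0898).

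Rpl35a-ps3 and Rpl35a-ps4, named here after their values were seen, are identical in sequence to Rpl35a-ps2 over their 333 bases, and none of the 3 has a unique window, so their reads cannot be told apart and the 3 are not independent measurements. Their log2(FC) was 1.66 ± 0.50 and 1.77 ± 0.52 in the HBB line (adjusted p = 0.00873 and 0.00688) and 1.97 and 1.63 in the Pkp4 cUTR line, above the parent's 1.16 and 1.01. The fourth copy was the lowest of the family in the HBB line, at 1.11.

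Rps12 encodes a small subunit protein of the beak. Rps12-ps10 had 2.00, 0.58, 1.96 and 1.49 log2 CPM in the HBB Ps samples and −0.02, 0.12, −0.79 and 1.35 in CB. CB sample 4 was above Ps sample 2, and the fractions overlapped. Every window of this member is unique among the annotated transcripts, with 4 mismatches to Rps12 in 399 aligned bases. Whether its reads were kept apart from those of Rps12 was not tested. Its log2(FC) was 1.43 ± 0.46 (adjusted p = 0.0127), 1.09 without CB sample 3 (adjusted p = 0.0621) and 1.75 without the CB samples numbered 4 (adjusted p = 0.000522). The Pkp4 cUTR value was 1.08 ± 0.42 (adjusted p = 0.0339), where leaving out any one of CB samples 1 to 3 or Ps samples 1 to 3 gave an adjusted p of 0.0529 to 0.111. That call also ended without weights, with total reads as library size, with quantile normalization and with log2(CPM + 1), at an adjusted p of 0.103, 0.0906, 0.159 and 0.0768.

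Rps13-ps2, a copy of the gene for a small subunit protein at the subunit interface, had a log2(FC) of 1.40 ± 0.37 in the HBB line and 1.24 ± 0.34 in the Pkp4 cUTR line (adjusted p = 0.00377 and 0.00441). Rps15a-ps6 had 1.38 ± 0.46 and 1.28 ± 0.43 (adjusted p = 0.0164 and 0.0173). Its adjusted p rose to 0.0738 and 0.0676 without HBB CB sample 3 or HBB Ps sample 1, and to 0.0536 and 0.0522 without Pkp4 cUTR Ps sample 1 or 3 and 0.0561 with quantile normalization in that line. Rpl9-ps6 had 1.34 ± 0.31 and 1.36 ± 0.30 (adjusted p = 0.0012 and 0.000887). Rpl31-ps8, among the 5 steepest in the Pkp4 cUTR line, had 1.38 ± 0.26 there and 1.21 ± 0.27 in the HBB line (adjusted p = 0.000197 and 0.000852). Rpl10-ps3, a copy of the gene for a protein that joins the large subunit late in its assembly, had 1.31 ± 0.58 and 1.20 ± 0.55 (adjusted p = 0.0623 and 0.0704). It passed in the HBB line without HBB Ps sample 2 or 4 or Pkp4 cUTR Ps sample 1 or 4 (adjusted p = 0.0185, 0.0472, 0.0483 and 0.0209) and in the Pkp4 cUTR line without Pkp4 cUTR Ps sample 4 (1.77, adjusted p = 0.00237).

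These 6 members of high enrichment, Rpl35a-ps2, Rps13-ps2, Rps15a-ps6, Rpl9-ps6, Rpl31-ps8 and Rpl10-ps3, were low in the same samples. Each had its lowest HBB Ps value in sample 2, its lowest HBB CB value in sample 3 and its lowest Pkp4 cUTR Ps value in sample 4. Low values in HBB Ps sample 2 and HBB CB sample 3 were not particular to them, since 107 and 99 of the 112 members were below the mean of the other 3 samples there. In Pkp4 cUTR Ps sample 4 this held for 74 of the 112, and the median of the parents was −0.33. In Pkp4 cUTR Ps, sample 4 stood at 0.91 log2 CPM for Rpl10-ps3 where the other 3 were at 2.94 to 3.52, and at 1.73 for Rps15a-ps6 where the others were at 3.57 to 3.68. Rpl31-ps8 and Rps13-ps2 match their parents at every base, while 95.9% of the windows of Rps15a-ps6 are unique.

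The lowest enrichments above a mean log2 CPM of 1 were found, in one line or the other, for copies of Rpsa, Rpl3, Rpl18, Rps6, Rps10 and Rpl14. Rpsa encodes a small subunit protein also known as a laminin receptor, and with 8 members it had the largest family. Rpsa-ps10 had log2 CPM of 4.20, 3.75, 4.05 and 4.75 in the HBB Ps samples and of 3.33, 3.66, 3.24 and 4.67 in CB. CB sample 4 exceeded Ps samples 1 to 3, so the groups overlapped. The log2(FC) was 0.50 ± 0.31 (adjusted p = 0.175) with all samples and 0.78 ± 0.18 without the CB samples numbered 4 (adjusted p = 0.00121). Rpsa-ps12 went from 0.61 ± 0.36 (adjusted p = 0.159) to 0.94 (adjusted p = 0.00278) in the HBB line in the same way, where Rpsa had 0.92. Its Pkp4 cUTR value was 0.22 ± 0.37 (adjusted p = 0.636), the lowest of the 39 members above a mean log2 CPM of 1, and 0.56 without those samples (adjusted p = 0.0571).

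Rps10, whose protein lies near the mRNA entry of the small subunit, has a pair of copies that differed in this respect. Rps10-ps1 (chr3:95622278-95622772, plus strand) had log2 CPM of 3.97, 3.26, 3.68 and 4.28 in the HBB Ps samples and of 2.79, 2.76, 2.40 and 4.64 in CB. Its Pkp4 cUTR values were 3.88, 3.88, 3.87 and 3.37 in Ps and 2.88, 2.58, 2.70 and 4.86 in CB. In both lines CB sample 4, with 550 and 690 reads, was the highest of all 8 samples, while CB samples 1 to 3 were below every Ps sample.

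With all samples the log2(FC) of Rps10-ps1 was 0.73 ± 0.43 and 0.53 ± 0.43 (adjusted p = 0.157 and 0.305), and without the CB samples numbered 4 it was 1.16 ± 0.19 and 1.03 ± 0.20 (adjusted p = 5.72e-05 and 0.000219). Rps10-ps2, in contrast, had CB values of 4.70, 4.60, 5.00 and 4.69 in the HBB line and of 5.20, 4.62, 4.68 and 4.94 in the Pkp4 cUTR line, with sample 4 inside the range of the others. Its log2(FC) was 0.75 ± 0.15 and 0.66 ± 0.15 (adjusted p = 0.0003 and 0.000984) and 0.74 and 0.69 without those samples. Of the windows of Rps10-ps1 95.9% are unique, and of those of Rps10-ps2 28.0%.

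Rps6-ps4, a copy of the gene for the S6 kinase substrate and identical to Rps6 in sequence, had a log2(FC) of 0.62 ± 0.21 and 0.66 ± 0.20 (adjusted p = 0.017 and 0.0107) against 1.08 and 1.03 for Rps6. Its HBB call was lost without CB sample 1, CB sample 3 or Ps sample 4 (adjusted p = 0.0552, 0.0704 and 0.0634). With total reads as library size both lines lost it, at 0.38 and 0.39 (adjusted p = 0.133 and 0.113). Rpl18-ps2 had 0.60 ± 0.41 in the HBB line (adjusted p = 0.224), and 1.00 without the CB samples numbered 4 (adjusted p = 0.00037). Rpl17-ps10, Rpl23a-ps3 and Rps15-ps2 had 0.64, 0.69 and 0.67 where their parents had 1.29, 1.23 and 1.04, and the adjusted p was 0.0194, 0.0633 and 0.00589. Without the CB samples numbered 4, Rpl23a-ps3 had 0.98 (adjusted p = 0.000169). Rpl17-ps10 lost its call without HBB CB sample 1 or Ps sample 3 or 4 (adjusted p = 0.0674, 0.065 and 0.0722), and with total reads as library size (0.41, adjusted p = 0.119) or quantile normalization (0.53, adjusted p = 0.072). With total reads it was also lost in the Pkp4 cUTR line (0.48, adjusted p = 0.0583), as was that of Rps15-ps2 (0.40, adjusted p = 0.0549).

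With all samples, the median enrichment of the pseudogenes was slightly below that of their parents. The 51 parents had a median log2(FC) of 1.10 in the HBB line and 1.04 in the Pkp4 cUTR line, all 51 passed an adjusted p under 0.05 in each, and 38 and 34 passed the fold rule. The difference of log2(FC), member minus parent, had a median of −0.13 in the HBB line (range −1.50 to 0.84), with 75 members below 0 and 57 within 0.25 of 0. For Pkp4 cUTR cells its median was −0.12, with 73 below 0. These differences are descriptions and were not tested.

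The sign of that median turned with the samples. Without the CB samples numbered 4 the median difference was 0.11 in the HBB line and 0.15 in the Pkp4 cUTR line, with 72 members above 0 and 40 below in each. Without HBB Ps sample 2 alone it was 0.0005, and under quantile normalization it was 0.29 and 0.35. Whether pseudogenes as a group were more or less enriched than their parents was thus not settled by these samples.

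Among the 39 members with a mean log2 CPM above 1, the log2(FC) of member and parent had a Pearson's r of 0.51 and a Spearman's rho of 0.54 in the HBB line, and of 0.38 and 0.43 in the Pkp4 cUTR line. Over all 112 members r was 0.20 and 0.25. The points share libraries, parents with 2 or more members (27 parents) and reads that fit both copies. The ratio of member to parent within a sample was lower in every Ps than in every CB sample of the HBB line for 3 members, Rps26-ps1, Rpl14-ps1 and Rps15-ps2, and higher for 0. In the Pkp4 cUTR line it was lower for 2, Rps13-ps4 and Rps19-ps3, named after their values were seen. The samples of a line can be labelled as Ps or CB in only 70 ways. Chance can therefore yield counts of this size among 112 members, and no share of all RNAs can be set beside a ratio to a parent.

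**Figure D4:**
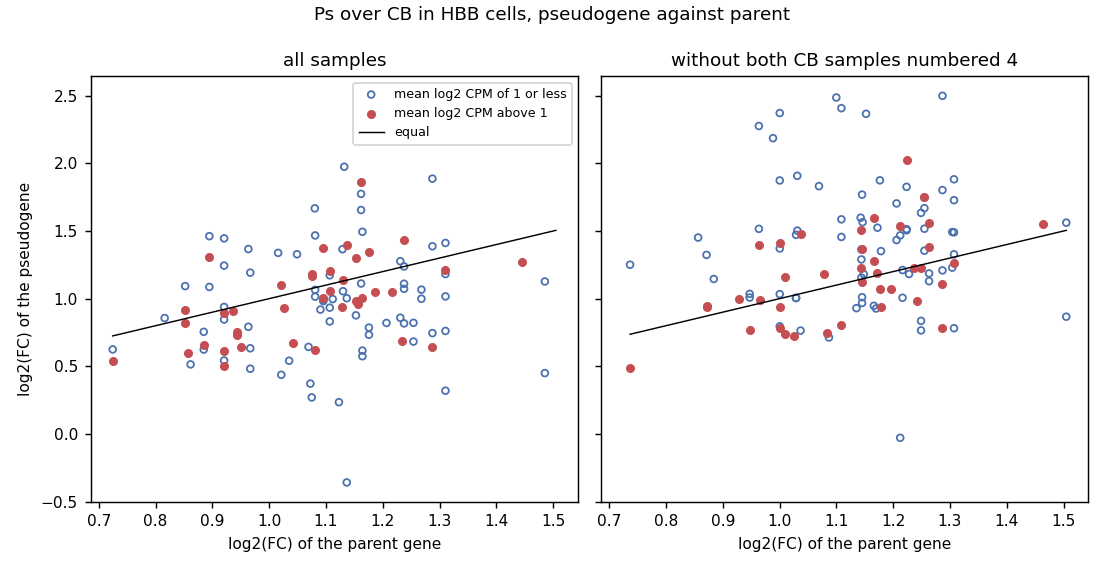
log2(FC) of Ps over CB in HBB cells of each pseudogene (vertical) against that of its parent (horizontal), with all samples (left) and without both CB samples numbered 4 (right); filled points have a mean log2 CPM above 1 and the line marks equal values. The median difference, member minus parent, is −0.13 on the left and 0.11 on the right.

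Members with and without sequence of their own shared the direction toward Ps, but not the number of calls. The 13 members without a unique window had a median log2(FC) of 1.21 in the HBB line and 1.14 in the Pkp4 cUTR line. The 22 members with unique windows throughout had 0.92 and 0.97, and all 22 were above 0 in the HBB line. At an adjusted p under 0.05 in that line, 12 of the 13 passed but only 7 of the 22, where 28.3% of all RNAs were higher in Ps. A mean log2 CPM above 1 was reached by 9 of the 13 and 5 of the 22. Across the 112 members, the share of unique windows and log2(FC) in the HBB line had a Spearman's rho of −0.10.

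Copies of one parent differed among themselves, mostly to both sides of its value. The 8 copies of Rpsa ran from 0.50 to 1.45 in log2(FC) in the HBB line around the parent's 0.92, and the 6 copies of Rpl31 from 0.32 to 1.41 against 1.31. Those of Rps2, 5 in number, ran from 0.83 to 1.20 against 1.11, and those of Rps15a from 0.98 to 1.38 against 1.10. The widest range among the families of 4 or more was that of Rpl17, whose 4 copies ran from 0.64 to 1.89 against 1.29. In the HBB line all copies of Rpl19 lay below their parent, at 0.62 to 0.75 against 0.88, and all copies of Rpl10 above, at 1.09 to 1.46 against 0.89. Neither held in the Pkp4 cUTR line, where they ran from 0.65 to 1.15 around 0.91 and from 0.30 to 1.20 around 0.81. The lowest copies of Rpl19, Rpl10 and Rpl17 had a mean log2 CPM of −1.48, −1.78 and −2.23, where the errors are wide. In mean level the Rps2 copies spanned −1.42 to 11.1 log2 CPM and those of Rpsa −2.15 to 4.13.

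The genes around the members were on both sides of 0. Of 20 members that overlap a gene of the opposite strand in the table, all 20 had a log2(FC) above 0 in both lines, with medians of 1.02 and 1.01. The 20 overlapping genes had medians of −0.09 and −0.02, with 11 and 10 of them below 0, and the member exceeded its overlapping gene in 20 cases in the HBB line and in 19 in the Pkp4 cUTR line. Rpl14-ps1 and Trpm4, for example, were at 0.64 and −0.78 in the HBB line.

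Of 5 members inside an intron of a gene on the same strand, 4 were above 0 in both lines. Those named here were chosen for their position, after their values were seen. Rps19-ps6 lies in an intron of Tecpr2, and had 1.01 ± 0.21 in the HBB line (adjusted p = 0.000455) where Tecpr2 had −0.87. Rps15a-ps6 lies in Nudcd3 (−0.11) and Rpl10-ps6 in Ide (0.39), with member values of 1.38 and 1.09 in the HBB line.

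The fifth, Rps13-ps4 in an intron of Taf1c, a subunit of the RNA polymerase I selectivity factor, was the only member below 0 in both lines. It had log2 CPM of −0.61, −1.90, −0.25 and 0.55 in the HBB Ps samples and of −1.09, −0.13, −0.35 and 1.10 in CB, which is 5 to 30 reads against 14 to 47. In the Pkp4 cUTR line it had 0.05, −1.92, −0.35 and −0.33 in Ps and −0.44, −0.44, −0.33 and 1.24 in CB. The fractions overlapped in both lines, CB sample 4 was the highest of each, and the values of Ps and CB samples 1 to 3 lay in the same range apart from a low Ps sample 2.

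Its log2(FC) was −0.36 ± 0.54 in the HBB line and −0.56 ± 0.55 in the Pkp4 cUTR line (adjusted p = 0.588 and 0.396), and −0.03 and −0.19 without the CB samples numbered 4. Rps13 had 1.14 and 1.04, and Taf1c −0.81 and −0.57. Reads of the member and of unspliced Taf1c RNA cannot be told apart in this table.

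The rise of the pseudogenes in the CB samples numbered 4 was measured against the mean of the other 3 samples of the group. Its median over the 112 members was 1.60 on the log2 scale in the HBB line, or 3.04-fold, and 1.88 in the Pkp4 cUTR line, or 3.68-fold. In each line 77 members exceeded 2-fold, where 3.22% of all RNAs did so in the HBB line and 3.95% in the Pkp4 cUTR line, and 72 members did so in both. The 51 parents moved by 0.16 and 0.29 in the median, and 0 of them exceeded 2-fold.

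The shift was larger for members of low level. It had a median of 2.10 and 2.49 in the 73 members with a mean log2 CPM of 1 or less, of which 63 exceeded 2-fold in each line, and of 0.64 and 0.83 in the 39 above, of which 14 did so in each. Other RNAs with a mean log2 CPM below 1, 2673 in number, had a median of −0.02 and 0.14. By sequence, the median was 0.54 and 0.70 in members without a unique window, 1.38 in both lines where under 50% of windows were unique, 2.10 and 2.15 from 50% to under 100%, and 1.70 and 2.25 where all were.

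It reached most in members that were nearly silent elsewhere. Rps27-ps1, named after its values were seen, had 2, 2, 1 and 33 reads in the HBB CB samples and 2, 2, 2 and 41 in the Pkp4 cUTR CB samples, a shift of 4.48 and 4.30 on the log2 scale. Its Ps samples held 4, 0, 6 and 20 reads in the HBB line and 8, 5, 5 and 17 in the Pkp4 cUTR line, so that sample 4 was the highest of all 4 groups. Rpl3-ps1 (−0.21 and −0.11), on the other hand, was not higher in these samples.

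The shift went beyond the members. The 503 other RNAs of the table annotated as processed pseudogenes had medians of 1.07 and 1.12, with 262 and 274 above 2-fold. They were not sorted by parent and can include copies of r-protein genes under other symbols. The 28 other RNAs with a symbol ending in -ps and a number moved less. Their medians were 0.46 and 0.55, with 10 and 8 above 2-fold, where 3.22% and 3.95% of all RNAs were. Of all RNAs above 2-fold in HBB CB sample 4, 18.5% were members and 63.0% other processed pseudogenes, and in Pkp4 cUTR CB sample 4 these shares were 15.1% and 53.8%. The median over all RNAs was −0.04 and 0.01.

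Among the Ps samples numbered 4, the HBB sample had a median of 0.62 with 38 members above 2-fold, and the Pkp4 cUTR sample one of −0.17 with 3. Of all RNAs, 1.9% and 1.19% exceeded 2-fold in these samples. HBB Ps sample 2 was low, at −0.84, with 107 of 112 members below the mean of the other 3. The labels give no date, extraction or sequencing run for any sample, and what sets these samples apart was not tested.

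**Figure D5:**
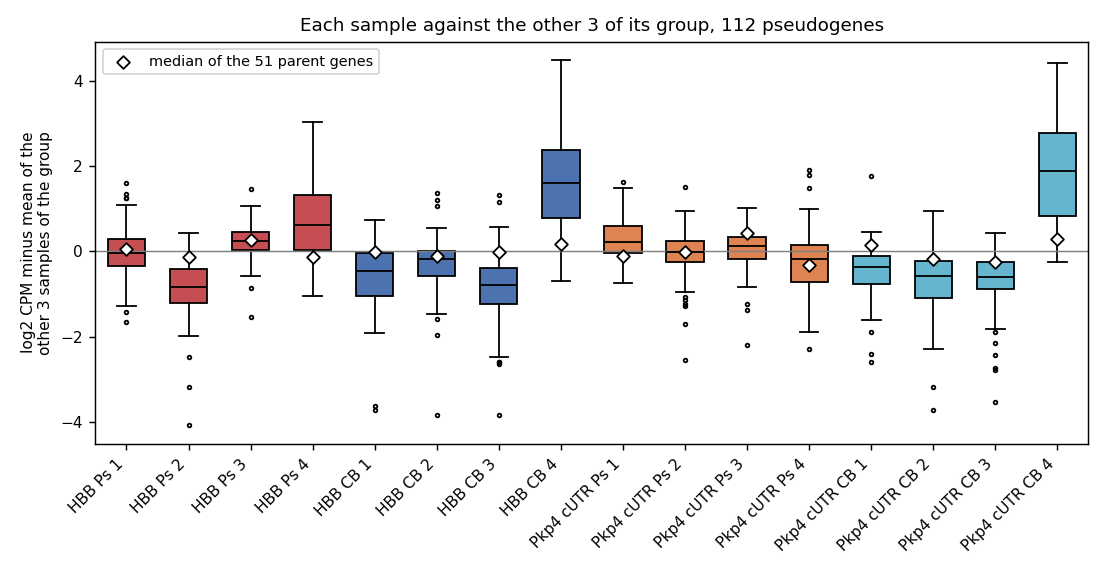
log2 CPM of each of the 112 pseudogenes in a sample minus its mean in the other 3 samples of the group, as boxes (median and quartiles, whiskers to 1.5 times the interquartile range, points beyond), with the median of the 51 parents as diamonds. The boxes of the CB samples numbered 4 have medians of 1.60 and 1.88 while their diamonds stay at 0.16 and 0.29.

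Between the lines, the enrichment of the pseudogenes did not differ detectably. The study asked whether the competing 3′UTR changes enrichment, by log2(Diff FC), the log2(FC) in Pkp4 cUTR cells minus that in HBB cells. By limma-voom 0 of 112 members had an unadjusted p under 0.1, where 5.80% of all RNAs did, and 0 had one under 0.05. The median log2(Diff FC) was −0.04 over the members and −0.05 over the parents. Without both CB samples numbered 4, 4 members passed p under 0.1, where 7.02% of all RNAs did, and without all samples numbered 4, 16 did, where the share was 7.76%. log2(Diff FC) carries the errors of both lines, and its SE was 0.12 for Rps2-ps13 (−0.19), 0.15 for Rps26-ps1 (−0.12) and 0.76 for Rpl35a-ps2 (−0.44).

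In level, the direction of the difference between the lines depended on single samples. In CB the median log2 difference of Pkp4 cUTR over HBB was 0.19 for the members and 0.23 for the parents, and in Ps 0.17 and 0.19. The CB median of the members was −0.16 without Pkp4 cUTR CB sample 4, with 42 of 112 above 0, and 0.50 without HBB CB sample 4, with 107 above 0. Their Ps median was −0.05 without HBB Ps sample 2, with 49 above 0. No member passed an adjusted p under 0.05 in CB or in Ps (limma-voom, 0 of 112 each), where 8.97% and 7.16% of all RNAs did. At an unadjusted p under 0.05 there were 2 members in CB and 0 in Ps, where 2950 and 2837 of all 12900 RNAs passed.

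The 2 were Rps24-ps3 and Rps2-ps13, and the first was named after its values were seen. Rps24-ps3 had log2 CPM of 0.31, 0.83, 0.40 and 1.90 in the HBB CB samples and of 1.41, 1.35, 1.17 and 2.81 in the Pkp4 cUTR CB samples, with sample 4 the highest of each and the groups overlapping through it. The Pkp4 cUTR sample was above the HBB sample of the same number in 4 of 4 pairs. Its difference was 0.86 ± 0.33 (adjusted p = 0.12), and without the CB samples numbered 4 it was 0.80 (adjusted p = 0.0386). Its parent Rps24 had 0.46. Rps2-ps13 had 0.22 ± 0.09 (adjusted p = 0.125) and Rps2 0.31.

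Other lists give the scale of these values. The 76 cytosolic r-protein genes had a median log2(FC) of 1.11 in the HBB line and 1.04 in the Pkp4 cUTR line, and 75 of them had an adjusted p under 0.05 in each. The 28 other RNAs with a symbol ending in -ps and a number, copies of genes of other functions, had medians of 0.22 and 0.17, with 2 Ps-enriched in each line and 4 and 3 CB-enriched. Malat1 and Neat1, which stay in the nucleus, had −1.85 and −1.48 in the HBB line and −1.27 and −1.21 in the Pkp4 cUTR line.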

How the data were processed

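RNA-seq was analysed in all 16 samples, 4 groups of 4 by the labels. Per the labels and the methods, the authors ran bcl2fastq 1.8.4, aligned paired-end reads of 126 bases with STAR 2.4.2a to mm10, counted them per GENCODE gene with Rsubread and normalized with limma 3.26.1. The deposited table gives log2 CPM per RNA and sample. Its columns of the authors' own comparisons (fold changes and p-values) were not used, and the number of per-sample columns left unused was 0. Every one of the 206400 values gave a whole read within 0.01 reads (100%), after the 0.5 reads that voom adds, so reads and scaled library sizes were recovered from the deposited log2 CPM. A log2 CPM above 0.5 in at least 1 sample, the stated filter, did not hold in the file, where 1418 RNAs (27 members) stayed at or below it. Each RNA exceeded a CPM of 0.5 somewhere. 85 members exceeded log2 CPM 0.5 in some sample, 4 of them in Ps alone, Rpl35a-ps4 included, and 5 in CB alone. A CPM of 0.5 was exceeded in Ps alone by 3 members.

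limma-voom (limma 3.58.1, R 4.3.3) was fitted to all 12900 RNAs and 16 samples, 1 mean per group, with precision weights, moderated errors, and Benjamini-Hochberg adjustment over all RNAs. Unless stated otherwise, an adjusted p is from this fit and a value after ± is its SE. Per the methods, the 4 samples of a group were independent replicates, and the p-values measure the spread between them. A floor of 3 reads was 0.089 to 0.176 CPM, for counting error only. The fit was tested on simulated data. Positions, lengths and sequences came from GENCODE vM21 (GRCm38), in which 111 symbols matched and 1 through an older symbol, and identities from blastn 2.17.0+. Of 300 such symbols annotated there, 189 were not in the table. Figures were drawn with matplotlib 3.10.9.

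Named members were the 12 highest by mean log2 CPM, the 5 highest and 5 lowest in log2(FC) per line and the 5 largest and 5 smallest differences from the parent in the HBB line above a mean log2 CPM of 1, and the parents of these. A further part, for members past the threshold in a comparison between the lines, named 0 members. Members and lists were chosen with earlier results of these data known.

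Samples with the same number deviated together across the lines. The correlation over 10154 RNAs was at least 0.331 for each pair of CB samples and 0.196 for each pair of Ps samples. Between Ps and CB samples of the same number it was 0.0455 to 0.389 in the HBB line and −0.362 to 0.00248 in the Pkp4 cUTR line. The numbers therefore pair the lines, and a replicate block across the lines left the comparisons of level at 0 members each. For enrichment and log2(Diff FC) the block instead paired Ps and CB samples of the same number within each line. It gave 1 member by log2(Diff FC), for which pairing across the lines was not applied. Alternatives were no weights with or without an intensity trend, total reads as library size, centring on medians, quantile normalization, a pseudocount of 1 CPM, only RNAs averaging over 0.5 log2 CPM, other thresholds, the replicate block and leaving out each sample. Leaving out both CB samples or all samples numbered 4 was added after seeing the data. The values of 1 member are not reported here.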

Additional observations from a re-analysis of the deposited data

Results flagged for a closer look

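Values of single samples were compared with the other 3 of their group by Dixon's test at its 95% critical value, on the gap to the nearest sample over the range. Chance alone passes it in about 1 of 20 groups. Over all 112 members it was passed with sample 4 as the highest in 35 (31.2%) in the Pkp4 cUTR CB samples and in 15 (13.4%) in the HBB CB samples, against 1.6% and 1.7% of all RNAs. The share of reads on the members was also set apart in HBB CB sample 4, at 0.381% against 0.286% to 0.300%, and in Pkp4 cUTR Ps sample 4, at 0.577% against 0.536% to 0.540%.

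Among the named members, Pkp4 cUTR CB sample 4 was high for Rps10-ps1 (4.86 log2 CPM), Rps16-ps2 (5.16), Rpsa-ps10 (5.05), Rpl19-ps11 (5.04), Rpl9-ps6 (3.00) and Rps12-ps10 (2.19). HBB CB sample 4 was high for Rpl23a-ps3 (2.87, where the others were at 1.32 to 1.56).

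Pkp4 cUTR Ps sample 4 was low for Rpl10a-ps1 (5.29 log2 CPM, others 5.98 to 6.04), Rps15a-ps6 (1.73), Rps10-ps1 (3.37), Rps16-ps2 (4.67) and Rpl9-ps6 (2.95). HBB CB sample 3 was low for Rpl10-ps3 (−0.10) and Rpl31-ps8 (2.54, others 3.25 to 3.30) and high for Rps23-ps (4.95). HBB Ps sample 2 was low for Rpl19-ps11 (4.53) and Rps16-ps2 (4.38). Rpl10-ps3 was low in Pkp4 cUTR CB sample 1 (0.737), and Rpl3-ps1 was high in Pkp4 cUTR Ps sample 1 (8.45, others 8.20 to 8.22).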

How the results depend on the processing

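The direction of the Ps/CB difference was stable while the number past 2-fold was not. The 36 and 35 Ps-enriched members (HBB, then Pkp4 cUTR line) became 23 and 21 without weights, 14 and 12 with scaling by total reads, 20 and 16 with quantile normalization, 11 and 7 with log2(CPM + 1), 20 and 14 of the 54 members with a mean log2 CPM above 0.5, and 57 and 62 at a fold of 1.5. They were 82 and 82 without both CB samples numbered 4 and 70 and 86 without all samples numbered 4. Leaving out single samples gave 20 to 75 and 18 to 77. The share of all RNAs moved as well, from 4.54% and 5.07% to 4.31% and 4.86% without weights, 1.88% and 1.90% with total reads, 3.46% and 3.46% with quantile normalization, 2.05% and 2.09% with log2(CPM + 1) and 3.70% and 4.09% with the filter. Members above 0 numbered 104 to 112 of 112 under these settings, except 54 of 54 with the filter. The cause of each change was not tested, apart from the smaller set under the filter.

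Members called by log2(Diff FC) went from 0 to 1 with total reads, quantile normalization, log2(CPM + 1) or the block, to 4 and 16 without the CB samples or all samples numbered 4, and to 0 to 5 without single samples. Pkp4 cUTR over HBB calls went from 0 to 1 in CB and to 2 and 3 in Ps under these last omissions, to 2 in CB at an unadjusted p, and were 0 to 2 and 0 to 0 without single samples. The median difference of log2(FC) from the parent (−0.129 and −0.120) became 0.295 and 0.348 with quantile normalization, 0.107 and 0.150 without both CB samples numbered 4, and 0.189 in the Pkp4 cUTR line without all samples numbered 4, with ranges of −0.293 to 0.107 and −0.244 to 0.150 without single samples.

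With the replicate number within each line as a block, 25 members were Ps-enriched in the HBB line and 20 in the Pkp4 cUTR line (all RNAs 4.22% and 4.76%). Rps12-ps10 then lost its call in both lines (adjusted p = 0.0613 and 0.145). By the correlations given for the processing, Ps and CB samples of the same number deviated together in the HBB line but not in the Pkp4 cUTR line. Of 1454 recomputed log2(FC) of the named members and Rps13-ps4, 1374 kept their side of the threshold, 41 lost their call and 39 gained one. Among values called with all samples or in the recomputed fit, 0 changed sign. Changes of sign without a call were not counted. Without HBB Ps sample 2 all 112 members, Rps13-ps4 included, were above 0 in the HBB line. At a median of under 30 reads in 57 members, depth limits single values.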
